A study of Drosophila melanogaster with 3 samples.

Results

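Weak promoter peaks are sites of low ChIP-seq signal beside the starts of protein-coding genes, and 3745 of the 24244 peaks of the pooled relaxed list were of this kind. They were selected on the authors' own signal and list membership: a peak belonged here when it stood in the list made from the pooled reads but was missing from the authors' optimal list. Its summit, the point of highest signal, also had to lie within 500 bp of a start of a protein-coding transcript. The optimal list held 5809 peaks, of which 2654 lay within the same distance of a coding start and are called optimal promoter peaks. The other 14690 peaks below the threshold are called weak peaks elsewhere, and 3155 optimal peaks lay elsewhere.

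The data came from chromatin immunoprecipitation followed by sequencing in whole Drosophila melanogaster embryos aged 0 to 16 hours, with both sexes pooled. The flies were a transgenic line that stably expressed the ind protein with GFP at its C terminus, and an antibody against GFP was used. All samples formed 1 group of 3 biological replicates, so no condition was compared with another. The chromatin was broken by sonication, and the labels give 200 to 800 as the size range. The sources used here do not give the promoter that drove the transgene, and an embryo collection of this span mixes many stages and cell types.

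The product of ind is a homeodomain transcription factor that patterns the intermediate column of the neuroectoderm, and homeodomains bind short cores rich in A and T. Promoters of broadly active fly genes often carry the DNA replication-related element (DRE), which the factor DREF binds, or Motif 1, which the factor M1BP binds. Promoters of developmental genes more often carry GAGA repeats, initiators or TATA boxes. Peaks just under a threshold are commonly set aside, although a threshold divides a continuous range of signal.

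Sequences of 101 bases around 6 summits show the range of these sites. The first 4 are the members of highest signal that held each of 4 motifs within 50 bp of the summit, with no annotated exon in the window, on the arms 2L, 3L, 3R, 4 and X. Capitals mark the motif TAATTA in rhea (the integrin adaptor talin), TATCGATA (DRE) and GGTCACAC (Motif 1) in SNF4Agamma (a subunit of AMP-activated kinase), and GAGAGAG in Rnf11. The last pair carries no capitals: CG5937 had the highest signal of all members, and CG12075 was the lowest-ranked member on those arms found in all 3 replicates with such a window. Each is given 5′ to 3′ on the plus strand from the RefSeq sequence of dm6. The windows, in that order, are chr3L:8544864-8544964, chr3R:21140601-21140701, chr3R:21156026-21156126, chr4:314727-314827, chrX:6039660-6039760 and chrX:8863973-8864073. Motif 1 and GAGAGAG lie there on the opposite strand, so their capitals read as the reverse complement.
rhea: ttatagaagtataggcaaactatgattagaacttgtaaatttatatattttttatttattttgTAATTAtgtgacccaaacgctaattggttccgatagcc
SNF4Agamma, DRE: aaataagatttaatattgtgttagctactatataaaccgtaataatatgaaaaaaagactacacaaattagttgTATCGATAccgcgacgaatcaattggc
SNF4Agamma, Motif 1: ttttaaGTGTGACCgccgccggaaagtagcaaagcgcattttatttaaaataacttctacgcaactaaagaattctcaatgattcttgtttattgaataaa
Rnf11: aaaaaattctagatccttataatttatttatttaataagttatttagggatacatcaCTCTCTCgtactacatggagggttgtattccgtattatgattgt
CG5937: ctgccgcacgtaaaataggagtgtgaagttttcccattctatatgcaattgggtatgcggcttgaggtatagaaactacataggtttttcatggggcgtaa
CG12075: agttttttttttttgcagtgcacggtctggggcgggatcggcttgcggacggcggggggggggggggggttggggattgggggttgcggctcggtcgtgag
The A+T content of these windows was 73.3% in rhea, 71.3% and 67.3% in SNF4Agamma, 72.3% in Rnf11, 57.4% in CG5937 and 33.7% in CG12075, where a run of G stands near the centre. The rhea window also holds TATAAA on the opposite strand, which reads as tttata, and a run of T. The first 4 summits lay at -87, -88, -286 and -146 bp from a start of their gene, where a negative distance is upstream.

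Signal is the authors' value for each peak, on a scale of its own in each list, so it is given here also relative to the threshold, which is the signal at rank 5809 of the same list. That signal was 118.7 in the pooled list and 30.6, 43.0 and 50.3 in the lists of replicates 1, 2 and 3. The members ran from 32.2 to 118.6 in pooled signal with a median of 51.9, or from 0.271 to 1.00 of the threshold with a median of 0.437. These values chose the members and are a description. The number of reads behind each list is unknown. The relaxed lists held 30000, 27570 and 25725 peaks in replicates 1, 2 and 3.

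The threshold cut between peaks of nearly equal signal. Just below it lay CG5937 (118.6), CG5555 (118.5) and Targ2 (118.5), and just above it CG17746 (118.7), CG1738 (118.8) and Arp10 (118.8). In replicates 1, 2 and 3, the CG5937 peak stood at 0.890, 1.21 and 0.833 of each threshold, and the CG1738 peak at 0.771, 0.810 and 1.23. The CG5555 peak stood at 1.48, 0.724 and 0.769, and the CG17746 peak at 0.651, 1.42 and 0.835. Each of these 4 peaks was above the threshold in 1 replicate and below it in the other 2. The Targ2 peak stood at 0.751, 1.40 and 0.499, and the Arp10 peak at 1.26 and 1.14 in replicates 2 and 3, with no summit within 200 bp in replicate 1. At the other end, sky, CG3566 and CG6959 had the lowest pooled signals, all 32.2. The sky and CG6959 peaks had no summit within 200 bp in any replicate, and the CG3566 peak had 1 only in replicate 1, at 0.317.

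The other strongest members lay at genes of varied function. Act42A, an actin gene, had a pooled signal of 118.4 and stood at 1.33, 0.979 and 0.745 of the threshold in replicates 1, 2 and 3. The rhea peak had 118.4 and stood at 1.03, 0.538 and 0.974. The peak at hts, which encodes an adducin, had 118.3 and stood at 1.45 in replicate 1 and 0.872 in replicate 3, with no summit in replicate 2. The rest of the 12 strongest, CG14764, plx, CG11791, east, CG5455 and Ehbp1, had 117.9 to 118.4. Of those 12 peaks 9 were found in all 3 replicates, and CG11791 was found in replicate 3 alone.

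A member was called found in a replicate when that replicate's relaxed list had a summit within 200 bp. The pooled list was made from the same reads, so these shares are a description of the lists. Found members made up 72.8%, 55.8% and 70.5% in replicates 1, 2 and 3 (66.4% ± 9.24, SD, n = 3), against 98.6%, 96.9% and 99.5% of the optimal promoter peaks (98.3% ± 1.34, SD, n = 3). In all 3 replicates 1157 members were found (30.9%), where 43.2% of all pooled relaxed peaks were. A further 1530 members were found in 2 replicates, 925 in 1 and 133 in 0. Exactly 1 replicate held 24.7% of the weak promoter peaks, against 0.264% of the optimal promoter peaks. The share was 33.4% of weak peaks elsewhere and 0.0634% of optimal peaks elsewhere. A share over all pooled relaxed peaks was taken only for all 3 replicates, so the counts for fewer replicates are a description. Of weak peaks elsewhere, 25.3% were found in all 3.

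Replicate 1 held more of these weak peaks, and replicate 2 fewer, than either held of weak peaks elsewhere. Weak peaks elsewhere were found at 52.4%, 64.8% and 66.4% in replicates 1, 2 and 3, so the promoter peaks differed from them by 20.4, -9.03 and 4.14 points. Since promoter peaks ranked higher, the members were split by pooled rank into 4 classes of equal size and set beside weak peaks elsewhere of the same ranks. In the third of these rank classes, 69.8%, 44.9% and 61.7% of the members were found in replicates 1, 2 and 3, against 47.3%, 62.1% and 63.2% of the weak peaks elsewhere. In the first the shares were 91.4%, 84.1% and 97.8% for the members, against 90.6%, 93.9% and 98.4% elsewhere. The difference in replicate 2 ran from -9.82 to -17.3 points over the 4 classes. In replicate 1 it was 0.764 points in the strongest class and 13.2 to 22.4 in the others. In replicate 3 it was negative in all 4 classes, from -0.644 to -6.85 points, although it was positive over all ranks together.

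**Figure D1:**
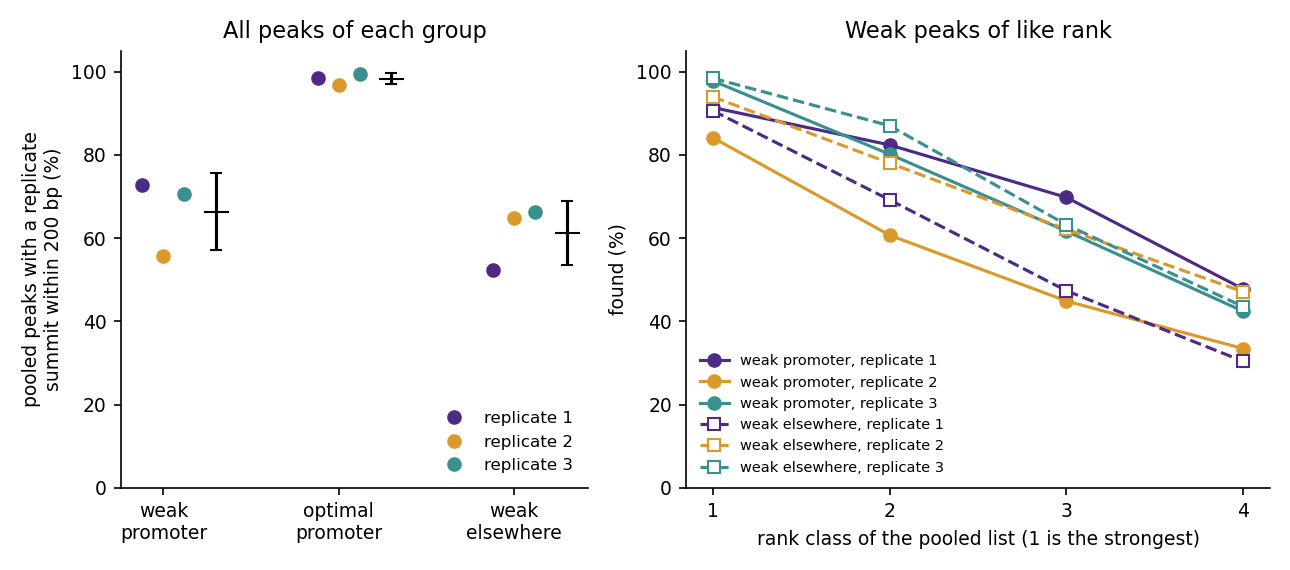
Share of pooled peaks with a replicate summit within 200 bp. On the left are weak promoter, optimal promoter and weak elsewhere peaks, with a dot for each replicate and the mean with SD beside them. On the right, filled dots are weak promoter peaks and open squares are weak peaks elsewhere in the members' 4 classes of pooled rank. The members' shares in replicate 2 lie below those elsewhere in every rank class.

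Members high in the ranks of a single replicate came mostly from replicate 1. Among as many of the strongest peaks as the optimal list holds, 768 members were found in at least 1 replicate (20.5%), against 1289 of the 14690 weak peaks elsewhere (8.77%). Of all pooled relaxed peaks, which include the optimal ones, 32.3% were. The members and the weak peaks elsewhere were not matched by pooled rank here. Over the members' 4 rank classes this share fell from 51.7% in the strongest to 5.02% in the weakest. An optimal summit lay within 300 bp of 8.76% of members and 2.68% of weak peaks elsewhere, and a replicate summit can match that neighbour instead. Of the 768 members, 650 were there in 1 replicate, 102 in 2 and 16 in 3. Replicate 1 alone held 404 of the 650, replicate 2 alone 132 and replicate 3 alone 114. Among weak peaks elsewhere the numbers were 409 for replicate 1 alone, 451 for replicate 2 alone and 263 for replicate 3 alone. The share of members with a deposited −log10 q-value of at least 2 at the matched replicate peak was 39.8%, 7.53% and 20.1% over replicates 1, 2 and 3, against 17.8%, 5.06% and 13.1% of weak peaks elsewhere. The whole lists had the same order, with 11218 of 30000, 6134 of 27570 and 8413 of 25725 peaks at such a value.

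The members that a single replicate held also differed in place and sequence. The 433 found in replicate 1 alone lay within 100 bp of the start in 51.0% of cases, against 22.8% of the 224 found in replicate 2 alone and 26.9% of the 268 found in replicate 3 alone. DRE stood within 100 bp of the pooled summit in 7.62%, 0.446% and 1.87% of these peaks in the same order, and GAGAGAG in 9.24%, 3.57% and 6.72%. Summits in coding sequence made up 19.2% of the peaks of replicate 2 alone and 12.3% of those of replicate 3 alone. The members found in all 3 replicates held DRE in 7.43% and GAGAGAG in 3.37%, and 1.64% lay in coding sequence. These classes were formed from the lists themselves and were not tested.

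Promoters made up less of the list as the signal fell. Of the pooled peaks at ranks 5810 to 24244, 20.3% lay at a coding start, against 45.7% of the optimal list. Base for base, 11.5% of the arms used lay within 500 bp of a coding start. The share was 28.9% at ranks 5810 to 8000, 22.6% at ranks 10001 to 12000 and 14.4% at ranks 21001 to 24244. Ranked in the replicates' own lists, the share at ranks 5810 to 8000 was 42.4%, 24.4% and 30.5% for replicates 1, 2 and 3. At ranks 1 to 2000 the replicates had spread over 54.7% to 56.2%, so their difference was in the weaker ranks.

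Weak promoter peaks lay further downstream than optimal ones. The summit was downstream of the nearest start in 33.2% of members (95% exact Clopper-Pearson interval 31.7% to 34.7%), against 13.4% of optimal promoter peaks (12.1% to 14.8%). Such intervals cover counting error only, and neighbouring peaks share reads. At the summits that each replicate gave, 33.3%, 27.2% and 29.6% of the members found lay downstream, against 13.6%, 14.0% and 13.3% of the optimal promoter peaks. The difference was 16.4 ± 3.23 points (SD, n = 3) with 1 sign in all 3 replicates (two-sided exact sign-flip permutation p = 0.25, adjusted 0.333 over 16 comparisons). With 3 replicates 0.25 is the smallest p this test can give, so none of the comparisons below could pass 0.05. The pooled list fixed both groups, and a replicate only gave each matched peak its own summit within 200 bp. Many sites were thus the same in each replicate: 95.2% of optimal promoter peaks and 30.9% of members were found in all 3. Like signs and small SDs here and below are therefore not independent replication. For members found in all 3 replicates the difference in downstream summits was 9.22 points.

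The difference lay on both sides of the start. The band from 50 to 200 bp upstream held 27.9% of weak promoter peaks, against 49.7% of optimal ones. Summits over 100 bp downstream made up 19.6% of the members, against 5.50% of optimal promoter peaks. Close to the start the groups were alike in the pooled list: 37.9% of the members and 39.5% of the optimal promoter peaks lay within 100 bp. In the replicates that difference was -2.34 ± 5.32 points, with replicate 1 of the opposite sign (exact permutation p = 0.75), and it was 0.382 points without replicate 2.

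**Figure D2:**
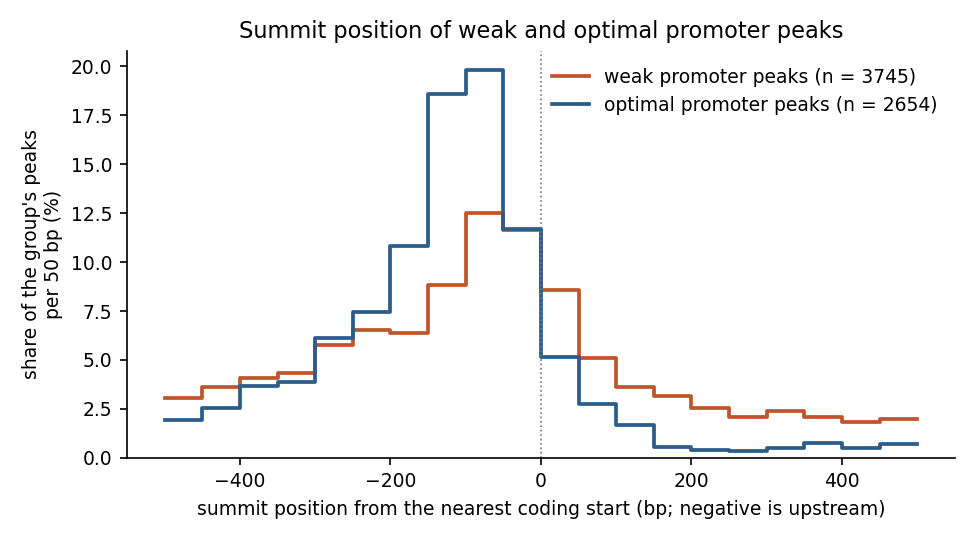
Share of summits per 50 bp by position from the nearest coding start, for weak promoter peaks and optimal promoter peaks of the pooled list. Negative positions are upstream. The optimal peaks pile up 50 to 200 bp upstream, where 49.7% of them lie, and the weak peaks spread further to both sides and into the transcribed region.

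By annotation, 23.7% of the members had their summit in a 5' UTR of a coding gene, against 14.4% of optimal promoter peaks, and 43.3% lay between coding genes, against 60.1%. Introns held 25.1% of the members and 23.4% of optimal promoter peaks. Coding sequence held 235 members (6.28%), against 8 optimal promoter peaks (0.301%). At replicate summits these shares were 4.93% ± 1.27 and 0.370% ± 0.0763 (SD, n = 3), higher for the members in all 3 replicates (exact permutation p = 0.25).

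Divergent promoters were rarer among the weak promoter peaks than among the optimal ones. Coding genes that start head to head, both within 500 bp of the summit, were found at 576 members (15.4%), against 1000 optimal promoter peaks (37.7%). Of all coding start positions, 22.7% had such a pair within 500 bp. That share counts each start of a pair, whereas the other shares count peaks. It is therefore not a like measure to set either group of peaks against. At replicate summits the share was 17.0%, 17.1% and 17.8% for the members in replicates 1, 2 and 3, against 37.2%, 37.3% and 37.5% for optimal promoter peaks. The difference of -20.0 ± 0.306 points had the same sign in all 3 replicates (exact permutation p = 0.25), which measured many of the same sites. Within the members, those 576 had a median of 0.556 of the threshold and 41.2% were found in all 3 replicates, against 0.421 and 29.0% of the remaining 3169.

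Some members stood beside a stronger peak. An optimal summit lay within 1000 bp of 718 members (19.2%), against 9.14% of weak peaks elsewhere. The nearest was 199 bp away, 260 members had 1 within 210 bp and 68 at over 210 and up to 300 bp. Only 9 had 1 at over 300 and up to 500 bp, and 381 at over 500 and up to 1000 bp. A coding start was shared with an optimal summit in 423 members (11.3%). For the 328 members within 300 bp, a replicate summit can match the neighbour instead: of their 816 matches, 189 (23.2%) lay nearer to the optimal summit than to the member.

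That neighbour bore on which members seemed strong in the replicates. The 10 members of highest mean rank in the replicates (Rab39, Deaf1, chas, stv, l(2)k01209, CG16700, kraken, CG8507, r2d2 and Nrt) all lay 199 to 251 bp from an optimal summit, and 16 of their 30 matches were nearer to it. The Rab39 peak, for example, was at 0.564 of the threshold in the pooled list but matched summits at 2.46, 4.13 and 4.09 in replicates 1, 2 and 3. Where a replicate summit also had to have the member as its own nearest pooled summit, the share found per replicate was 62.9% ± 9.38, and the share found in all 3 was 26.1%. Under that rule members within 300 bp of an optimal summit were found in all 3 in 26.8% of cases, against 26.1% of the others, where the plain rule gave 56.1% and 28.5%. Replicate summits were also shared between members: 122, 126 and 120 of the members found in replicates 1, 2 and 3 had the same summit as another member.

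Over 300 bp from an optimal summit, the 5 members of highest mean rank, singled out after their values were seen, were Rep, tim, Trf4-1, Fer2 and PIG-H. The peak at tim, a circadian clock gene, had a pooled signal of 117.4 and stood at 1.19, 1.18 and 0.941 of the threshold in replicates 1, 2 and 3. An optimal summit lay 598 bp from the tim peak, and the tim peak shared a coding start with an optimal summit. The Fer2 peak, at a gene for a basic helix-loop-helix factor, had 117.4 and stood at 1.01, 1.04 and 1.10, above the threshold in every replicate. The Rep peak had only 41.4 in the pooled list, or 0.348 of the threshold, yet stood at 1.65, 0.733 and 1.63. Its matched summits in replicates 1 and 3 were 127 and 196 bp away.

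In motifs of broadly active promoters the members were nearer to coding starts in general than to weak peaks elsewhere. Motifs were sought on both strands within 100 bp of the summit, in windows of 201 bases, and CGATA, the core that the boundary factor BEAF-32 binds, also lies inside TATCGATA. DRE stood in 6.97%, 5.22% and 5.76% of the members' windows in replicates 1, 2 and 3 (5.98% ± 0.896), against 0.442%, 0.483% and 0.595% of weak peaks elsewhere (0.507% ± 0.0793, SD, n = 3 each). Motif 1 stood in 4.19% ± 1.02 of the members, against 0.445% ± 0.0645 of weak peaks elsewhere, and CGATA in 34.5% ± 1.47, against 18.9% ± 0.113 (SD, n = 3 each). All 3 differences had the same sign in every replicate (exact permutation p = 0.25, adjusted 0.5 over 12 comparisons). The rule itself put members within 500 bp of a coding start and weak peaks elsewhere further away. A contrast in promoter motifs follows from that choice, so these values are a description of the groups. Windows at all 19275 coding start positions held DRE in 6.44%, Motif 1 in 5.68% and CGATA in 37.1%, above the members' mean shares. Those windows were centred on the start and the members' on summits, so here and below they differ in place. Members with summits 50 to 200 bp upstream held these motifs in 9.44%, 7.40% and 41.3%. Those with summits 1 to 200 bp downstream held them in 6.55%, 4.05% and 35.2%.

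Against optimal promoter peaks the members were poorer in A and T. A+T made up 59.6%, 61.2% and 61.1% of the members' windows in replicates 1, 2 and 3, against 64.2%, 64.8% and 64.8% in optimal promoter peaks, a difference of -3.98 ± 0.570 points (SD, n = 3; exact permutation p = 0.25). The groups did not overlap in this measure. TATAAA, the TATA box, stood in 29.3% ± 2.11 of the members, against 37.7% ± 0.825, and TAATTA, the homeodomain core, in 14.6% ± 2.01, against 18.3% ± 0.625 (SD, n = 3 each). Both were lower in the members in all 3 replicates (exact permutation p = 0.25). At all coding starts these motifs stood in 26.9% and 9.38% of windows, and A+T made up 57.7%. DRE stood in 5.98% ± 0.896 of the members, against 7.80% ± 0.459 of optimal promoter peaks (SD, n = 3 each), lower in all 3 replicates. The sign turned with windows of 50 bp to each side, where the members were 0.144 points higher. CGATA, drawn as the DRE core in the plot of motif shares, stood in 34.5% ± 1.47, against 39.0% ± 0.982. AAAAAA stood in 41.5% ± 0.686 of the members, against 45.5% ± 0.598, and 36.1% of coding starts. For members found in all 3 replicates the differences were smaller, at -2.18 points for A+T, -3.67 for TATAAA, -1.85 for TAATTA, -1.60 for CGATA and -1.18 for AAAAAA. Shares of A- and T-rich motifs were not compared at equal base composition.

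A pair of motifs were more frequent in the members than in optimal promoter peaks. GAGAGAG, the core of sites for GAGA factor, stood in 5.98%, 3.69% and 5.26% of the members' windows in replicates 1, 2 and 3, against 3.56%, 3.54% and 3.22% of optimal promoter peaks. The groups did not overlap, though the members' share in replicate 2 was only just above the optimal ones. All coding starts held GAGAGAG in 4.69%, close to the members' mean of 4.98%. The difference of 1.54 points in GAGAGAG was 0.164 for members found in all 3 replicates and 0.262 with 200 bp to each side, and that of TCAGT was 0.652 for members found in all 3. TCAGT, the initiator, stood in 34.0% ± 1.61, against 31.7% ± 0.172 (SD, n = 3 each), and in 43.4% of coding starts. GAGAGAG and TCAGT were higher in the members in all 3 replicates (exact permutation p = 0.25, adjusted 0.333). CAGCTG, an E-box, was less frequent in the members in all 3 replicates, at 9.76% ± 1.73, against 11.6% ± 0.362 (SD, n = 3 each; exact permutation p = 0.25). Its difference was -1.86 points, -6.88 with 200 bp to each side of the summit and 0.346 with 50 bp. The differences in the remaining motifs changed sign between replicates: GGTCACAC stood in 4.19% of the members and 3.96% of optimal promoter peaks, CAGGTA, the Zelda site, in 3.70% and 3.75%, and GGCGCC in 3.55% and 3.33%.

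**Figure D3:**
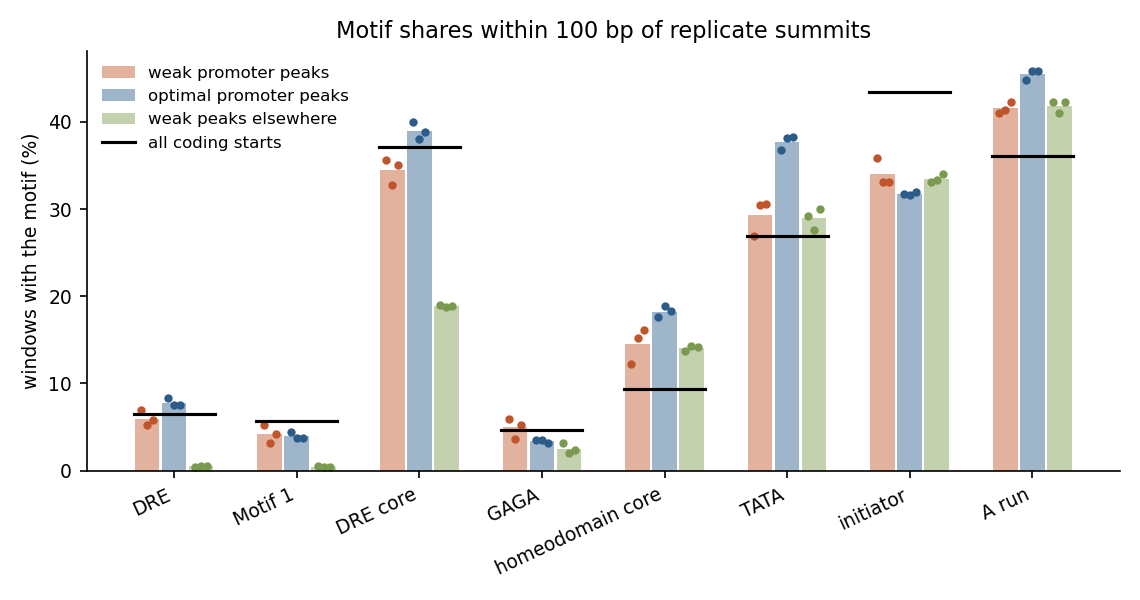
Share of windows of 201 bases at replicate summits that hold each motif. Bars are means over the replicates and dots are single replicates, for weak promoter peaks, optimal promoter peaks and weak peaks elsewhere; the black line is the share at all coding starts. DRE and Motif 1 are near 0 in weak peaks elsewhere, and TATA boxes are most frequent in optimal promoter peaks.

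Since the groups differed in position, they were also compared in bands of equal position, chosen after the first results were seen. At 50 to 200 bp upstream, with 1044 members and 1318 optimal promoter peaks, DRE stood in 9.44% ± 0.945 of the members and 9.45% ± 0.853 of optimal promoter peaks. Motif 1 stood there in 7.40% ± 0.964, against 4.72% ± 0.845 (SD, n = 3 each), higher in all 3 replicates. At 1 to 200 bp downstream, with 763 members and 268 optimal promoter peaks, GAGAGAG stood in 5.93% ± 1.37, against 1.14% ± 0.379 (SD, n = 3 each), again in all 3 replicates (exact permutation p = 0.25 for both). With only 268 optimal promoter peaks in that band, the share of 1.14% rests on very few sites. In the upstream band GAGAGAG stood in 4.60% ± 1.27, against 3.29% ± 0.285, higher in 2 of 3 replicates (exact permutation p = 0.5), and in the downstream band Motif 1 stood in 4.05% ± 1.13, against 4.42% ± 0.270. CAGCTG was lower in the members in both bands, by differences of -3.01 ± 1.32 and -5.19 ± 1.53 points. A+T was lower in the members in both bands, with differences of -2.92 ± 1.10 and -5.46 ± 0.523 points.

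Within the members, composition and place changed with rank. The weakest of the 4 rank classes had 45.6% of its summits downstream of the start, against 21.2% of the strongest, and A+T of 57.1%, against 62.7%. DRE stood in 2.99% of the weakest class and 9.39% of the strongest, with 5.34% and 5.98% between, and TATAAA in 21.8% and 31.6%. GAGAGAG did not follow this course, with 5.98% in the weakest class, 5.77% in both middle ones and 4.06% in the strongest. The mean share found per replicate was 41.2% in the weakest class, 91.1% in the strongest, and 58.8% and 74.4% between. Rank chose these classes, and the values are a description.

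The chromosome arms carried weak promoter peaks at similar density, except the fourth chromosome, which is small and largely heterochromatic. The fourth had 36 members and 10 optimal promoter peaks, or 253.5 and 70.4 per 1000 coding start positions. The other arms had 179 to 210 weak and 128 to 147 optimal promoter peaks per 1000 starts. The member with the GAGA repeat at Rnf11 was on the fourth, and so was the peak at ci, the Hedgehog pathway factor.

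At least 1 weak promoter peak lay at 3626 of 13968 protein-coding genes, a share of 26.0% of all genes, and 23.9% had an optimal one. Both kinds lay at 817 genes, and 2809 had a weak peak alone. The genes were counted by any coding start within 500 bp of a summit, so 1 peak can count for neighbouring genes. A single weak promoter peak was the rule, with 3001 genes, while 501 had 2 and 92 had 3. Tlk, a kinase gene of chromatin assembly, had 9 weak promoter peaks over 8 coding start positions and no optimal one.

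The genes named for most weak promoter peaks had 4 to 11 coding start positions each, against a mean of 1.41 over all genes. The peaks at Tlk ran from 34.2 to 102 in pooled signal, and the strongest of them stood at 0.852, 0.583 and 1.33 of the threshold in replicates 1, 2 and 3. SNF4Agamma had 8 peaks over 11 start positions, of which 4 stood at 0.762 to 0.961 of the threshold in the pooled list and were found in all 3 replicates. The other 4 stood at 0.297 to 0.341, and of these none was found in all 3. The genes bun (a TSC22 family regulator), IP3K2 (an inositol trisphosphate kinase) and Eip63E (a cyclin-dependent kinase) had 5 each. Neighbouring peaks of SNF4Agamma, bun and Eip63E shared matched replicate summits, so they are not separate measurements.

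Genes of the columnar patterning of the nerve cord, the process in which ind acts, had weak promoter peaks more often than optimal ones. Of 17 genes, 10 had a weak promoter peak (58.8%, against 26.0% of all genes) and 2 an optimal one (11.8%, against 23.9%). A weak one alone lay at 9 genes (52.9%, against 20.1% of all genes). The list held 1.71 coding start positions per gene, against 1.41 over all genes. With starts within 250 bp the count was 5 in place of 10, or 29.4% of the list, against 18.6% of all genes at that distance. Where only members found in all 3 replicates were counted, the share was 5.88%, against 9.41% of all genes. Lists of genes are described by counts, with no test.

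The columnar peaks were held mainly by replicate 1. Of the 13 weak promoter peaks at these genes, 12 were found in replicate 1, 4 in replicate 2 and 5 in replicate 3 (92.3%, 30.8% and 38.5%), against 72.8%, 55.8% and 70.5% of all members. The pooled list includes the reads of replicate 1, whose part in these gene counts was not tested. The peak at -153 bp from the start of sog, an antagonist of Dpp, had a pooled signal of 49.1 and stood at 1.02 of the threshold in replicate 1, with no summit in the others. The peak at -291 bp from a start of pnt, an ETS factor of the EGF receptor pathway, had 47.5 and stood at 1.04 in replicate 1 alone. Dr, the homeodomain gene of the dorsal column, had peaks at 25 bp (pooled signal 43.1) and -208 bp (36.8) from its start. Both Dr peaks matched a replicate 1 summit at 1.34 of the threshold, and the first also 1 at 0.297 in replicate 3.

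The remaining columnar members were weaker or spread over replicates. SoxN, a SoxB factor of the neuroectoderm, had peaks of 64.2 and 58.9, found in replicates 1 and 3 and in replicates 1 and 2. The peak at spi, the main EGF receptor ligand, had 108.4 and stood at 0.803, 0.680 and 1.72 in replicates 1, 2 and 3, the only columnar peak found in all 3. Egfr had 40.2, dpp 32.4, and the FGF ligands pyr and ths 34.1 and 36.6. The peak at vnd, the homeodomain gene of the ventral column, had 35.4 and no summit in any replicate. No weak promoter peak lay at D, vn, zen, aos, rho, brk or ind itself, and aos and spi had optimal ones.

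At Hox and segmentation genes, too, replicate 2 held few of the weak promoter peaks. Of 15 Hox cluster genes and cofactors, 8 had a weak promoter peak (Abd-B, cad, exd, hth, lab, tsh, Ubx and Antp) and 2 an optimal one (bcd and Dfd). These were 53.3% and 13.3% of the list, against 26.0% and 23.9% of all genes. The 10 weak promoter peaks of this list were found 9, 3 and 4 times in replicates 1, 2 and 3. The cad peak, at a posterior patterning gene, had a pooled signal of 54.6 and stood at 0.967 of the threshold in replicate 1 alone. Antp had 80.3 and stood at 0.572, 0.562 and 0.760, the only gene of this list with a peak found in all 3. The exd peak, at 112.1, lay nearer to the start of CG46312.

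Of 26 segmentation and segment polarity genes, 8 had a weak promoter peak (30.8%, against 26.0% of all genes) and 3 an optimal one (11.5%, against 23.9%). Their 11 peaks were found 9, 2 and 7 times in replicates 1, 2 and 3. The wg peak, at the Wnt ligand of segment polarity, had 77.8 and stood at 1.20, 0.469 and 0.381. The hairy gene (hry) had 67.4 and stood at 0.788 and 0.740 in replicates 1 and 3, and the ci peak of 78.4 was absent from replicate 1 and stood at 0.541 and 0.808 in replicates 2 and 3. Replicate 1 was thus not the strongest at each gene.

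Other neural lists were nearer than the columnar list to the 26.0% of all genes with a weak promoter peak. Of 21 proneural, Notch and neuroblast division genes, 7 had a weak promoter peak (33.3%) and 5 an optimal one (23.8%, against 23.9% of all genes). In each replicate 7 of their 13 weak promoter peaks were found. The pros peak, at the neuroblast fate factor, had 59.2 and stood at 1.12 in replicate 1 alone, while grh had 114.0 and stood at 1.07 and 1.11 in replicates 2 and 3. The Notch gene N had 104.7 and stood at 0.591, 1.01 and 0.720. Of 19 temporal and motor neuron identity genes, 5 had a weak promoter peak (26.3%) and 1 an optimal one (5.26%). Among them tup, an islet factor, had 48.4 and stood at 1.06 in replicate 1 alone. Of 22 synaptic and neuronal genes, 7 had a weak promoter peak (31.8%) and 2 an optimal one (9.09%), with futsch at 100.5 the strongest.

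**Figure D4:**
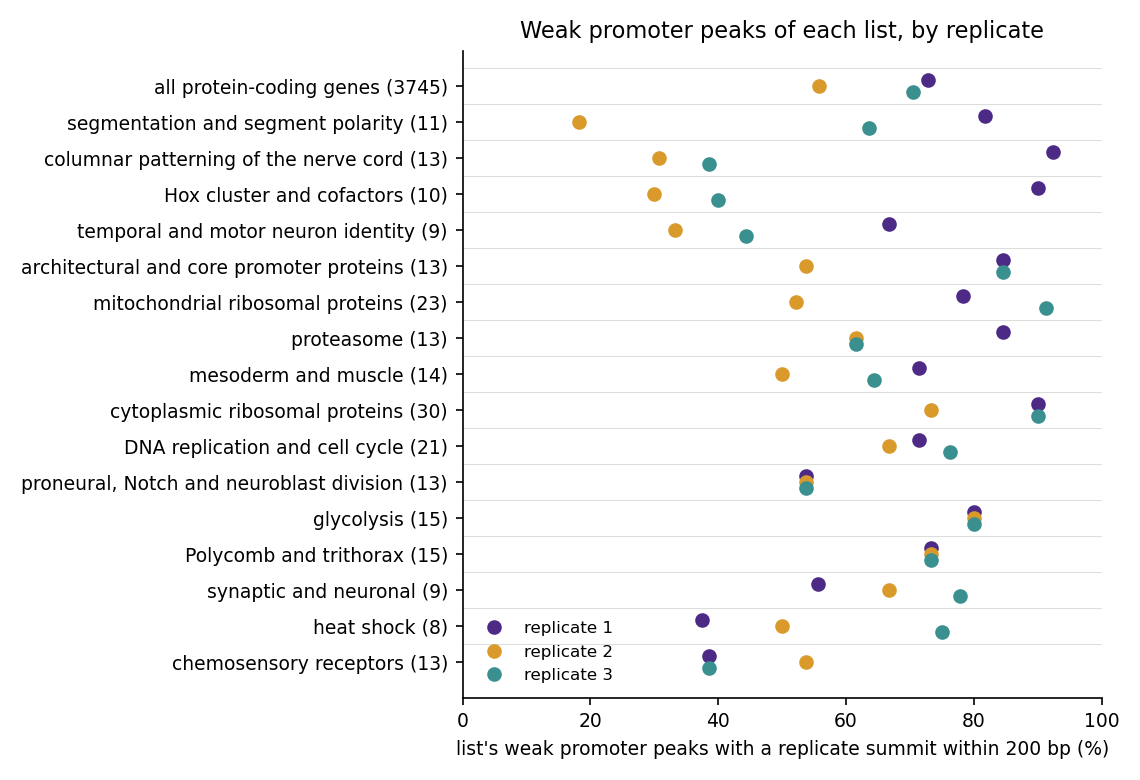
Share of each list's weak promoter peaks with a summit within 200 bp in each replicate, for lists with at least 8 such peaks (number in brackets), with all members in the top line. Columnar, Hox and segmentation genes show replicate 1 at 92.3%, 90.0% and 81.8% and replicate 2 at 30.8%, 30.0% and 18.2%. Cytoplasmic ribosomal protein genes are as high in replicate 1, at 90.0%, with replicate 2 at 73.3%.

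Chromatin regulators and cell cycle genes had both weak and optimal promoter peaks more often than coding genes in general. Replicates held the weak ones about evenly. Of 24 Polycomb and trithorax genes, 14 had a weak promoter peak (58.3%, against 26.0% of all genes) and 10 an optimal one (41.7%, against 23.9%). In each replicate 11 of their 15 weak promoter peaks were found. The strongest lay at esc (104.2), a subunit of the histone H3 lysine 27 methyltransferase complex, and stood at 1.03, 1.00 and 0.524 in replicates 1, 2 and 3. The Pc peak had 95.6 and stood at 0.914, 0.860 and 0.608. Of 30 DNA replication and cell cycle genes, 17 had a weak promoter peak (56.7%) and 14 an optimal one (46.7%). Mcm5, a subunit of the replicative helicase, had the strongest with 110.3. Orc1, of the origin recognition complex, had 97.5 and stood at 0.671, 0.703 and 0.999, and CycB had 99.5 with no summit in replicate 1.

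Ribosomal protein and proteasome genes had frequent optimal peaks and weak ones near the share over all genes. Of 85 cytoplasmic ribosomal protein genes, 27 had a weak promoter peak (31.8%, against 26.0% of all genes) and 58 an optimal one (68.2%, against 23.9%). RpS19a had a weak peak of 112.3 that stood at 1.98, 0.914 and 0.466, and RpL35A had 110.4 and stood at 1.78, 0.582 and 0.632, so replicate 1 was highest in both. Of 73 mitochondrial ribosomal protein genes, 20 had a weak (27.4%) and 33 an optimal promoter peak (45.2%), with mRpS11 at 116.8. Of 40 proteasome genes, 12 had a weak (30.0%) and 16 an optimal one (40.0%). Glycolysis had the highest share of all lists, with 8 of 13 genes (61.5%, against 26.0% of all genes) weak and 7 optimal (53.8%, against 23.9%). Glycolysis genes had 2.62 coding start positions each on average. Architectural and core promoter proteins had 10 weak (41.7%) and 14 optimal (58.3%) of 24. Muscle genes had 8 (33.3%) and 9 (37.5%) of 24, with Mef2 at 110.3.

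Lists of chemosensory receptor, male accessory gland and testis, and eggshell genes had few, where 26.0% of all genes had a weak promoter peak. Of 179 chemosensory receptor genes, 13 had a weak promoter peak (7.26%) and 1 an optimal one (0.559%). The strongest lay at Gr21a (80.1) and Gr63a (78.5), which encode the carbon dioxide receptor, although the Gr63a peak was nearer to the start of Lamtor4. Of 78 male accessory gland and testis genes, 4 had a weak promoter peak (5.13%). With starts within 250 bp the count was 2 (2.56%, against 18.6% of all genes). The spelling rule of that list also took dj-1beta, a gene of oxidative stress. Of 15 eggshell genes, 2 had a weak promoter peak (13.3%) and 0 an optimal one. Of 23 heat shock genes, 6 had a weak promoter peak (26.1%, near the share over all genes) and 8 an optimal one (34.8%, against 23.9%). The Hsp22 and Hsp67Bc peaks had their summits in coding sequence.

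**Figure D5:**
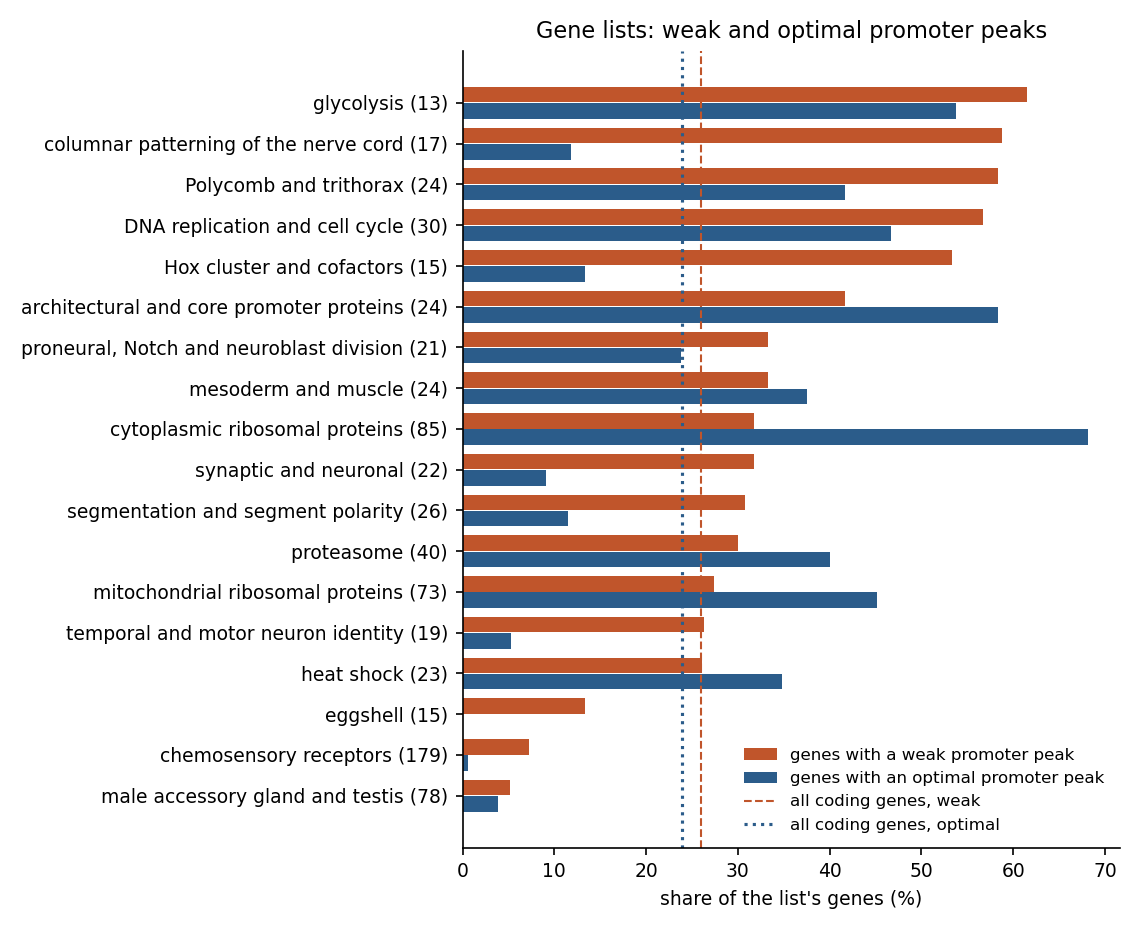
Share of each list's genes with a weak promoter peak and with an optimal promoter peak; the number of genes is in brackets. The dashed and dotted lines are the shares over all protein-coding genes, 26.0% and 23.9%. Columnar and Hox genes have weak peaks at 58.8% and 53.3% but optimal ones at 11.8% and 13.3%. Cytoplasmic ribosomal protein genes have weak peaks at 31.8% and optimal ones at 68.2%, both above the lines.

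Counts of genes depended on how firmly a peak had to be held by the replicates. The 18 lists together counted 184 genes with a weak promoter peak, and 71 when only members found in all 3 replicates were used. Over all protein-coding genes the share fell from 26.0% to 9.41% between the same settings, so a fall was not particular to the lists. Columnar and Hox genes then had 1 gene each (5.88% and 6.67%), below the 9.41% of all genes, whereas they stood above all genes when every member was counted. Polycomb and trithorax genes and DNA replication and cell cycle genes then had 8 each (33.3% and 26.7%). In 16 of the 18 lists the count moved by over 1.5 times under that rule.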

How the data were processed

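Notes deposited beside the lists say that the authors called relaxed lists of peaks and background for each replicate and for the pooled reads against 1 control, and derived the optimal list by the irreproducible discovery rate. Each peak has the authors' signal value, whose scale is not stated, a q-value deposited on the −log10 scale, and a deposited summit offset. No source used here names the aligner, the caller or a version. The control, tracks and dm3 lists were not used here.

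Summits of the dm6 lists were joined to protein-coding transcript starts of Ensembl BDGP6 release 115 and to the RefSeq sequence of the same assembly. Peaks matched within 200 bp, motifs were sought within 100 bp, and differences between groups were taken per replicate and tested by two-sided exact sign-flip permutation with Benjamini-Hochberg adjustment. p-values measure only the spread between these 3 replicates, whose summits come from many of the same pooled peaks. Code was tested on simulated data.

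Members, gene lists, motifs and tests were chosen with earlier results of these data known. Of the list spellings, Dl, Nelf-B, putzig, lat and calypso matched no current symbol. Genes named were the 12 members of highest signal, the 10 of highest mean replicate rank, up to 4 per list, 3 on each side of the threshold, the 3 lowest and the 5 genes with most members; any others, and all columnar genes, were named after their values were seen. Alternatives varied distances, starts, windows, stringency and replicates. Scripts ran on Python 3.11.15 with scipy 1.17.1, matplotlib 3.10.9, pandas 2.3.3 and numpy 2.4.6.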

Additional observations from a re-analysis of the deposited data

How the results depend on the processing

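The number of members was 3745, 2580 within 250 bp of a coding start and 5410 within 1000 bp, 4283 with the starts of all annotated transcripts, and 866 where the −log10 q-value had to reach 2. The share found in all 3 replicates, 30.9%, was 20.0% with summits within 100 bp, 44.1% within 500 bp, 0.427% among as many of each replicate's strongest peaks as the optimal list holds, 26.1% with reciprocal matches and 28.5% for members over 300 bp from an optimal summit; the last pair of settings was chosen after seeing the data. It ran from 39.3% to 52.8% when any 1 replicate was left out, where fewer lists had to hold a peak, and the mean share found per replicate from 63.1% to 71.7%. The share within 100 bp of the start ran from 33.4% to 40.9% over replicate summits without 1 replicate. An optimal summit lay near 9.00% of the members at 500 bp and 32.2% at 2000 bp, and 11.3% shared a coding start with it.

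Differences in motif share that changed sign against optimal promoter peaks reached at most 1.30 points. With 50 bp to each side of the summit they were 0.144 points for TATCGATA, 0.346 for CAGCTG, 0.00841 for CAGGTA and -0.0796 for GGCGCC. For GGTCACAC the difference was -1.30 with 200 bp to each side and -0.365 at 1 to 200 bp downstream, and ran from -0.0209 to 0.614 without 1 replicate. For CAGGTA it was 0.183 for members over 1000 bp from an optimal summit and ran from -0.232 to 0.271 without 1 replicate. For GGCGCC it was -0.0491 for members found in all 3 replicates. For members found in all 3 replicates several differences kept their sign and shrank: TATAAA was -3.67 in place of -8.41 points, TAATTA -1.85 in place of -3.69, CGATA -1.60 in place of -4.52, AAAAAA -1.18 in place of -3.95, TCAGT 0.652 in place of 2.27, GAGAGAG 0.164 in place of 1.54, A+T -2.18 in place of -3.98, downstream summits 9.22 in place of 16.4 and coding sequence 1.45 in place of 4.56. The difference within 100 bp of the start ran from -4.93 to 0.382 points without 1 replicate. The count of genes over the 18 lists was 71 in place of 184 with members found in all 3 replicates. The share over all genes was then 9.41% in place of 26.0%. The cause of these changes was not tested.

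No paired analysis was possible because all samples belonged to 1 group; differences between groups of peaks were taken within each replicate. Limits are the 3 replicates, the unknown read depth, the unnamed signal scale and matches that neighbouring peaks can share. Replicate 1's list held exactly 30000 peaks, and no source used here says whether its length was capped.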
